A study of Homo sapiens with 24 samples.

Results

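The kinesin motor genes were taken as every row of the expression table whose symbol is KIF followed by a digit, which gave 40 of 30373 rows. By the known role of the protein, 13 were classed as mitotic kinesins, 15 as transport kinesins, 6 as ciliary kinesins and 5 as other kinesins. The remaining row, KIF9-AS1, is an antisense transcript and not a motor gene. Kinesins whose symbols have another form (KIFC1, KIFC2, KIFC3 and CENPE) are not members and are given below as a separate list.

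Expression came from sequencing of poly-A selected RNA, with 24 libraries prepared from 4 established cell lines of human origin. Of these, 3 grow in suspension and derive from acute myeloid leukaemia (AML), namely Kasumi-1, MV-4-11 and SKM-1, and the adherent line NCI-H1299 derives from a non-small cell lung cancer and lacks p53. MV-4-11 carries a fusion of KMT2A (MLL), and Kasumi-1 a fusion of RUNX1 with RUNX1T1. Each line was given, for 24 h, the vehicle DMSO, ABBV-075 at 100 nM or ABBV-744 at 200 nM, which made 12 groups of 2 libraries. All lines were cultured in the same serum-supplemented medium and no group had any other treatment or engineered allele. ABBV-075 (mivebresib) inhibits both bromodomains of the BET proteins, readers of acetylated histones at active genes, and ABBV-744 is selective for the second of these bromodomains. Whether libraries of the same group were separate cultures is not stated, so the p-values may measure only technical spread. AML is represented by 3 lines and lung cancer by 1, so a difference between them is a difference between these lines.

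Kinesins are motor proteins that hydrolyse ATP to move along microtubules or to take them apart. Mitotic kinesins separate the spindle poles, move and align the chromosomes and build the central spindle on which a dividing cell is cut apart, and most of their messages are made late in the cell cycle. Transport kinesins carry vesicles, organelles and RNA towards microtubule plus ends, mainly in cells that are not dividing or between divisions, and ciliary kinesins build or drive cilia. KIF11 has been a drug target in cancer because dividing cells depend on it.

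Values are FPKM (fragments per kilobase of transcript, scaled to library size), and tests were made with limma on log2(FPKM + 1), so that each log2 difference below is on that scale and understates the change of low genes. A gene was tested in a line when at least 2 of its libraries reached 1 FPKM. It was called higher or lower at a p under 0.05 after Benjamini-Hochberg adjustment over all genes tested in the comparison, and all adjusted p-values below come from this test. The FPKM sum of a library ran from 543426 to 719215. The depth behind the values is unknown, since the deposited values are not counts. Replicate pairs were compared by the SD over genes of the log2 gap between the 2 libraries. It was 0.67 for SKM-1 DMSO and 0.49 for Kasumi-1 ABBV-075, against 0.18 to 0.30 for the other 10 pairs. For the kinesins, values without a library of those 2 pairs are given beside the results that it decided. Genes of the other lists were not checked in this way, so their SKM-1 and Kasumi-1 results carry that spread. All 6 leucocyte markers reached 1 FPKM in every AML library, with a summed level of 174 FPKM or more, against 2.47 to 3.84 FPKM in NCI-H1299. All 6 adherent carcinoma markers did so in every NCI-H1299 library, with sums of 1049 FPKM or more, and summed to at most 10.7 FPKM in the AML lines. No lymphoid or erythroid marker reached 1 FPKM in every library of any line.

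Of the 40 rows, 23 were tested in all 4 lines. In all, 26 were tested in SKM-1, 25 in MV-4-11, 27 in Kasumi-1 and 30 in NCI-H1299. FPKM is a value per transcript length, so levels can be compared between genes. Over the 24 libraries the highest median level among the mitotic kinesins was that of KIF2C, 52.1 FPKM, and among the transport kinesins that of KIF5B, 51.6 FPKM. All 11 mitotic kinesins other than KIF2B and KIF4B were tested in every line. KIF2B was listed at 0 in all 24 libraries. KIF4B stayed at or below 0.275 FPKM, and since it is a near-identical copy of KIF4A, its values and those of KIF4A are uncertain where reads could be split between them. KIF6 (at most 0.753 FPKM), KIF12 (0.0827), KIF19 (0.169), KIF25 (0.0782) and KIF26A (0.723) were tested in no line.

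In NCI-H1299, ABBV-075 lowered the mitotic kinesins as a class while the transport kinesins moved both ways. Of 11 tested mitotic kinesins, 10 fell and none rose, where 26.5% of all genes tested in this line fell and 20.6% rose. The median log2 difference of the class was −1.52, against −0.06 over all genes tested. The sum of the 11 mitotic kinesins was 461 and 457 FPKM in the DMSO libraries and 167 and 168 FPKM in the ABBV-075 libraries. In AML the same class rose, fell or was mixed, depending on the line. Bulk RNA cannot tell apart fewer cells in mitosis from less RNA per cell.

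**Figure D1:**
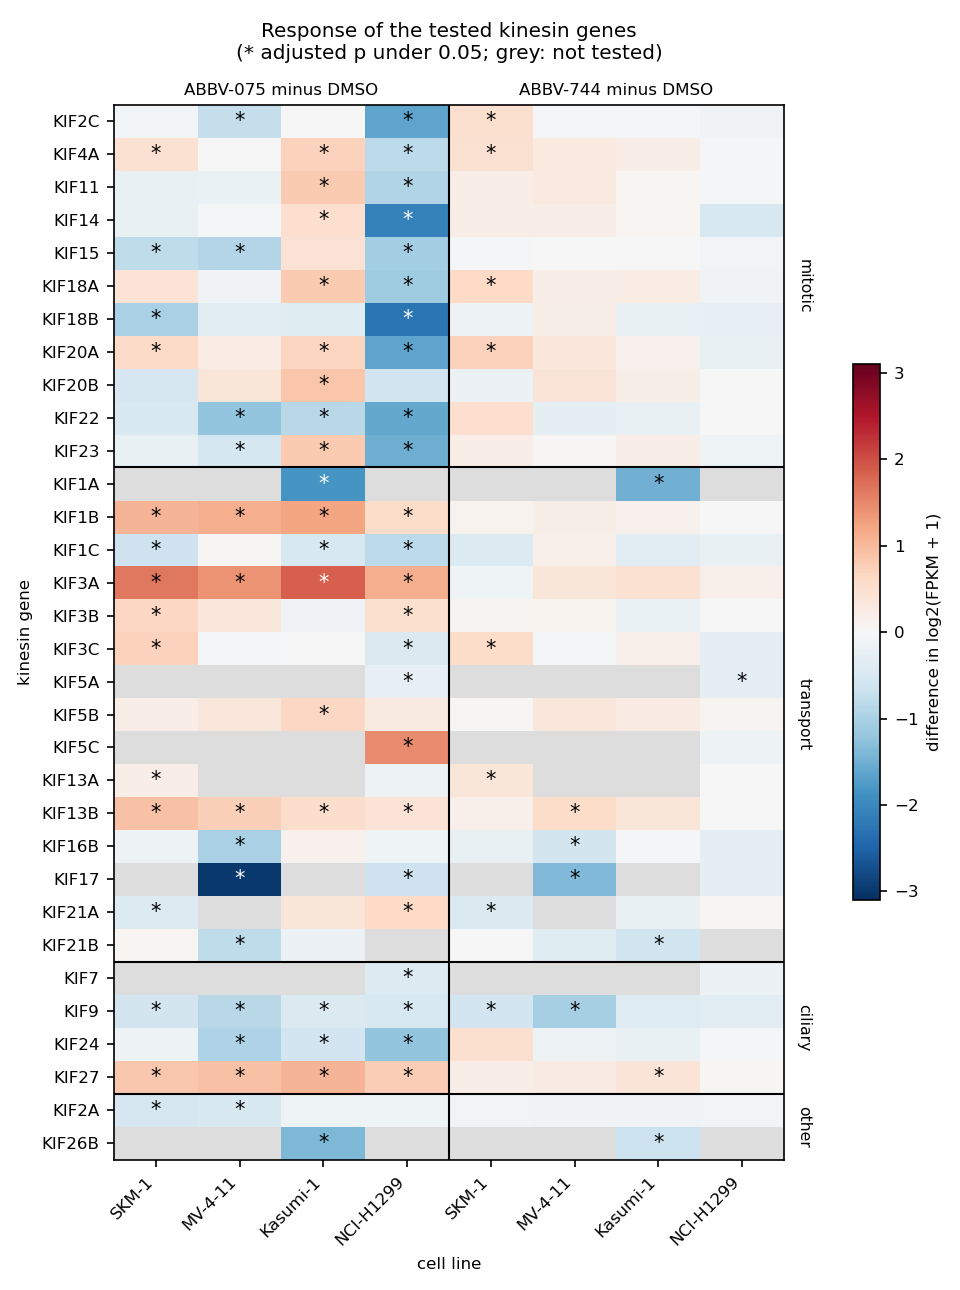
Heat map of the log2 difference from DMSO, on the log2(FPKM + 1) scale, of each tested kinesin gene (rows, ordered by class) in the 8 comparisons of a compound with DMSO (columns), with an asterisk where the gene was called. The ABBV-075 column of NCI-H1299 is negative for all 11 mitotic kinesins, 10 of them called, and the Kasumi-1 column is positive for 8 of the 11, 7 of them called.

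Because the mitotic kinesins moved together in NCI-H1299, their promoters were searched for motifs of late cell cycle genes. RefSeq promoter windows (GRCh38.p14, from 250 bases before to 50 after the start) were at hand for all 13 mitotic kinesins, 12 transport kinesins, 4 ciliary and 4 other kinesins. The cell cycle homology region, searched as TTTGAA on both strands, was found in 9 of 13 mitotic kinesins (KIF11, KIF14, KIF15, KIF18A, KIF18B, KIF20B, KIF23, KIF4A and KIF4B) and in 1 of 12 transport kinesins, KIF5B. It was found in no ciliary or other kinesin, and in 15.2% of all 35116 windows. Its variant TTCGAA was found in KIF22 and in the ciliary kinesin KIF24, and in 1.45% of all windows. CCAAT, the box bound by NF-Y, was in 10 of 13 mitotic, 4 of 12 transport, 2 of 4 ciliary and 1 of 4 other kinesins, against 34.6% of all windows. The E-box CACGTG was in none of these kinesin windows and in 7.26% of all windows. TTCGAA and CACGTG read the same on both strands, TTTGAA and CCAAT can share end bases, and a window was counted for each motif it holds. A gene with several windows was counted where any of them held the motif. A match describes these letters only. Of the mitotic kinesins printed below, KIF11, KIF14, KIF18A, KIF23 and KIF4A were called higher in Kasumi-1 with the same compound. KIF22 was called lower in that line, and KIF15 and KIF18B were not called. The following stretches are shown because 8 belong to mitotic kinesins that fell in NCI-H1299 and the last to the transport kinesin with the motif. They are given 5′ to 3′ on the gene's strand with the motif in capitals. TTCAAA is the same motif read on the opposite strand.
KIF18B, chr17:44947751-44947801 (minus strand): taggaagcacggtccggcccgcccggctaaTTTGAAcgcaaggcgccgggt
KIF14, chr1:200620730-200620780 (minus strand): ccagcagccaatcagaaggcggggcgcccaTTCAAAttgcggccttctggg
KIF23, chr15:69414264-69414314 (plus strand): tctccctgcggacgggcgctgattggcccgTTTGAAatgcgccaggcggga
KIF22, chr16:29790694-29790744 (plus strand): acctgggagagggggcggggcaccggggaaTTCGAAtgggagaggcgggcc
KIF18A, chr11:28108146-28108196 (minus strand): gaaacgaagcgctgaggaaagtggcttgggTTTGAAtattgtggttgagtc
KIF15, chr3:44761729-44761779 (plus strand): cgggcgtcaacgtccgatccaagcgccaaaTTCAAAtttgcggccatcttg
KIF11, chr10:92593072-92593122 (plus strand): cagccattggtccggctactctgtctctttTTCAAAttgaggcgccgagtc
KIF4A, chrX:70290040-70290090 (plus strand): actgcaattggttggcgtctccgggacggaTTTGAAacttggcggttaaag
KIF5B, chr10:32056545-32056595 (minus strand): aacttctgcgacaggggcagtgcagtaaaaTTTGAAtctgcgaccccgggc
KIF20A and KIF2C, which also fell in NCI-H1299, have neither form of the motif in their windows. In KIF18B, KIF14 and KIF18A the motif lies within 10 bases of the start, and in KIF5B it lies at position -140, farther from the start than in the mitotic stretches printed here.

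On the log2(FPKM + 1) scale the largest fall among the mitotic kinesins of NCI-H1299 was that of KIF18B, and by fold of FPKM that of KIF14. KIF18B, which limits the length of astral microtubules, was at 31.1 and 31.6 FPKM with DMSO and at 5.76 and 5.78 FPKM with ABBV-075, a level 5.43-fold lower (log2 difference −2.26 ± 0.20, SE, n = 2 a group, adjusted p = 1.93e-07). KIF14, which acts with citron kinase in cytokinesis, was at 8.62 and 8.91 FPKM with DMSO and at 1.25 and 1.32 FPKM with ABBV-075, 6.83-fold lower (−2.10 ± 0.18, adjusted p = 1.97e-07). In both genes the 2 treated libraries lay close together and far below the controls.

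KIF20A and KIF23 both work at the central spindle. KIF20A brings the Aurora B complex there, and KIF23 forms centralspindlin with RACGAP1. KIF20A was at 73.2 and 71.2 FPKM with DMSO and at 23.8 and 21.6 FPKM with ABBV-075 (−1.63 ± 0.17, adjusted p = 1.16e-06). KIF23 was at 73.5 and 72.9 FPKM with DMSO and at 24.2 and 25.5 FPKM with ABBV-075 (−1.52 ± 0.14, adjusted p = 3.98e-07). Each was about as abundant as the other in the controls and fell to about the same level. KIF4A, a chromokinesin that sets the length of the central spindle with PRC1, had a smaller difference, from 43.1 and 43.9 FPKM to 24.3 and 24.6 FPKM (−0.81 ± 0.09, adjusted p = 3.14e-06).

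KIF2C is a microtubule depolymerase that corrects faulty attachments of chromosomes, and KIF22 is a chromokinesin that pushes chromosome arms outwards. KIF2C was at 78.6 and 77.2 FPKM with DMSO and at 24.9 and 23.6 FPKM with ABBV-075 (−1.65 ± 0.16, adjusted p = 6.01e-07). KIF22 was at 73.5 and 71.5 FPKM with DMSO and at 23.5 FPKM in both ABBV-075 libraries (−1.59 ± 0.30, adjusted p = 0.000486). The groups of either gene did not overlap.

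The motors that push the spindle poles apart fell as well. KIF11, which slides antiparallel microtubules, was at 32.7 and 32.1 FPKM with DMSO and at 15.8 and 17.5 FPKM with ABBV-075 (−0.92 ± 0.18, adjusted p = 0.000483). KIF15, which can take over from KIF11, was at 9.69 and 9.73 FPKM with DMSO and at 4.13 and 4.26 FPKM with ABBV-075 (−1.04 ± 0.19, adjusted p = 0.0004). KIF18A, which damps the swings of chromosomes at the metaphase plate, was at 19.9 and 20.6 FPKM with DMSO and at 8.85 and 8.96 FPKM with ABBV-075 (−1.10 ± 0.18, adjusted p = 0.000161). All 3 were at 0.43 to 0.51 of their control levels. KIF20B, which acts in the completion of cytokinesis, was not called. It was at 16.8 and 17.1 FPKM with DMSO and at 10.1 and 11.3 FPKM with ABBV-075 (−0.62, adjusted p = 0.111). In a fit of the 6 NCI-H1299 libraries alone its adjusted p was 8.82e-05, and without either SKM-1 DMSO library it was 0.0202. Between 10 and 11 mitotic kinesins were called lower in this line when any 1 of the 24 libraries was left out.

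**Figure D2:**
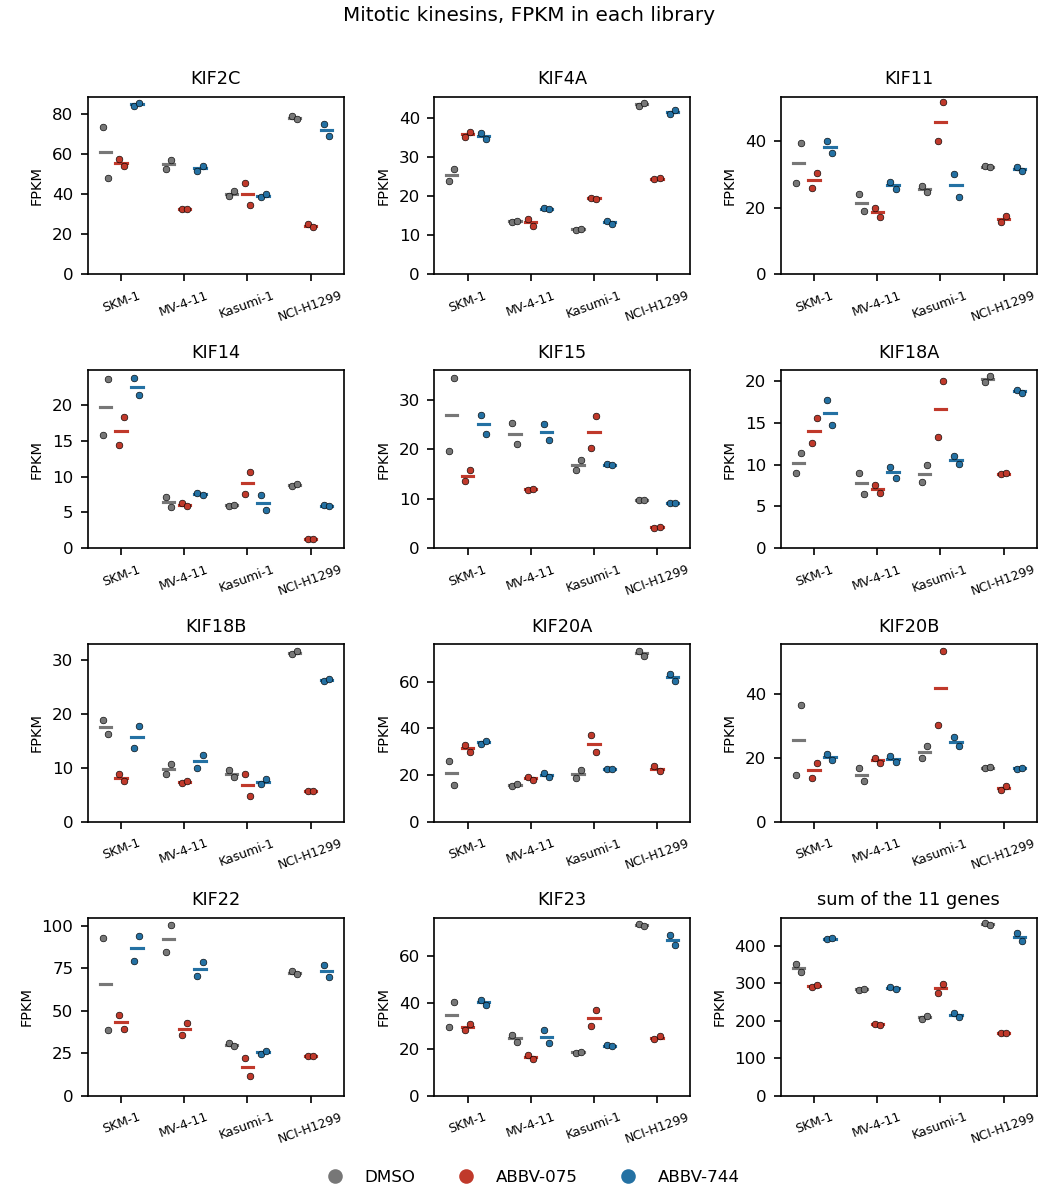
FPKM of the 11 tested mitotic kinesins and of their sum (panels) in the 12 groups, with a point for each library and a bar for the mean of the 2 libraries of a group. The ABBV-075 points of NCI-H1299 lie below its DMSO points in all 11 panels, and the sum falls from 457 or more to 168 FPKM or less.

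In Kasumi-1 most of the class rose. With ABBV-075, 7 of 11 mitotic kinesins rose and 1 fell, where 24.7% of all genes tested rose and 32.6% fell, and the class median was 0.67 against −0.09 over all genes. The sum of the 11 rose from 204 and 214 FPKM to 275 and 299 FPKM. KIF4A was at 11.5 FPKM in both DMSO libraries and at 19.7 and 19.3 FPKM with ABBV-075 (0.71 ± 0.09, adjusted p = 7.19e-06). KIF23 was at 18.3 and 18.8 FPKM with DMSO and at 30.1 and 36.7 FPKM with ABBV-075 (0.81 ± 0.14, adjusted p = 0.000166). Neither gene's groups overlapped, although the 2 treated libraries of KIF23 stood further apart than the controls.

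KIF11 rose in Kasumi-1 from 26.6 and 24.6 FPKM to 40.0 and 51.6 FPKM (0.81 ± 0.18, adjusted p = 0.00105). KIF18A rose from 7.95 and 9.90 FPKM to 13.3 and 20.03 FPKM (0.81 ± 0.18, adjusted p = 0.00147), and KIF20A from 18.9 and 22.3 FPKM to 37.0 and 29.8 FPKM (0.67 ± 0.17, adjusted p = 0.00304). For KIF11 and KIF18A the second ABBV-075 library was the higher, and for KIF20A the first. KIF20B (0.86, adjusted p = 0.0252) and KIF14 (0.51, adjusted p = 0.0258) were also called higher, and KIF22 was called lower, from 30.7 and 29.0 FPKM to 22.1 and 11.6 FPKM (−0.86, adjusted p = 0.0241). KIF15 (0.46, adjusted p = 0.0552), KIF18B (−0.39, adjusted p = 0.105) and KIF2C (−0.02) were not called.

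The spread of the Kasumi-1 ABBV-075 libraries bears on these calls. Without the first of them 8 mitotic kinesins were called higher, and without the second 5. KIF4A, KIF11, KIF18A, KIF20A and KIF23 kept their call whichever single library was left out, with log2 differences of 0.70 to 0.73, 0.62 to 0.99, 0.53 to 1.09, 0.51 to 0.82 and 0.67 to 0.95. The calls of KIF14 (0.29, adjusted p = 0.268), KIF20B (0.46, adjusted p = 0.29) and KIF22 (−0.42, adjusted p = 0.313) were lost without the second ABBV-075 library. KIF22 was also lost without the first (−0.82, adjusted p = 0.0958) or the second (−0.90, adjusted p = 0.0661) DMSO library, KIF14 without the first (0.49, adjusted p = 0.0963) or the second (0.53, adjusted p = 0.0726), and KIF20B without the first (0.73, adjusted p = 0.135). KIF18B was called lower without the first ABBV-075 library (−0.77, adjusted p = 0.00124). KIF15 was called higher without that library (0.65, adjusted p = 0.0225) and without either SKM-1 DMSO library (0.46, adjusted p = 0.00647). In a fit of the Kasumi-1 libraries alone KIF14 was not called (adjusted p = 0.0889), and with no filter on low values KIF20B was not (adjusted p = 0.052). Of the 6 leucocyte markers, 4 fell and 1 rose in the same comparison, with SPI1, a myeloid transcription factor, at −3.71. SPI1 was also called lower in SKM-1 with ABBV-075 (−3.26, adjusted p = 1.37e-08), and was not called in MV-4-11 (−0.46, adjusted p = 0.139). The part of these markers in the result was not tested.

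In MV-4-11 the mitotic kinesins fell or were not called. Of 11, 4 fell and none rose, where 22.1% of all genes tested fell and 20.3% rose, and the class median was −0.20 against −0.01 over all genes. The sum of the 11 was 283 and 286 FPKM with DMSO and 192 and 189 FPKM with ABBV-075. KIF22 made up much of that difference, with 84.7 and 100.4 FPKM in the controls and 35.8 and 42.9 FPKM with ABBV-075 (−1.22 ± 0.30, adjusted p = 0.00427). KIF15 fell from 25.3 and 20.97 FPKM to 11.8 and 12.03 FPKM (−0.90 ± 0.19, adjusted p = 0.00154), and KIF2C from 52.6 and 56.8 FPKM to 32.6 and 32.3 FPKM (−0.74 ± 0.16, adjusted p = 0.00155). In these 3 genes the groups did not overlap. KIF23 was also called lower (−0.55, adjusted p = 0.00539), but not without the first DMSO library (−0.47, adjusted p = 0.0542) or the second ABBV-075 library (−0.48, adjusted p = 0.0545). The other 7 were between −0.36 (KIF18B) and 0.37 (KIF20B). In a fit of the MV-4-11 libraries alone those 2 were called, KIF18B lower (adjusted p = 0.0486) and KIF20B higher (adjusted p = 0.0459).

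In SKM-1 the class was mixed. With ABBV-075, 2 of 11 mitotic kinesins rose and 2 fell, where 32% of all genes tested rose and 29.2% fell, and the class median was −0.22 against 0.05 over all genes. The sum of the 11 was 351 and 331 FPKM with DMSO and 289.9 and 296 FPKM with ABBV-075, so the groups did not overlap. KIF4A rose from 23.9 and 26.8 FPKM to 35.1 and 36.5 FPKM (0.48 ± 0.09, adjusted p = 0.000266), and KIF20A from 26.2 and 15.98 FPKM to 32.7 and 30.1 FPKM (0.59, adjusted p = 0.00614). KIF18B fell from 18.8 and 16.2 FPKM to 8.90 and 7.503 FPKM (−1.01 ± 0.20, adjusted p = 0.000369), and KIF15 from 19.5 and 34.4 FPKM to 13.5 and 15.8 FPKM (−0.79, adjusted p = 0.00242). The DMSO libraries of KIF15 and KIF20A were far apart, yet neither gene's groups overlapped.

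The SKM-1 DMSO libraries decided several of these calls. The largest gap between them among the kinesins was that of KIF20B, at 14.7 and 36.7 FPKM, and KIF22 was at 92.9 and 38.8 FPKM. Without the first DMSO library 6 mitotic kinesins were called lower: KIF18B, KIF15, KIF20B (−1.15, adjusted p = 0.0011), KIF14 (−0.51, adjusted p = 0.0278), KIF11 (−0.47, adjusted p = 0.0336) and KIF23 (−0.43, adjusted p = 0.0128). Without the second, 4 were: KIF18B, KIF15, KIF22 (−1.09, adjusted p = 0.0017) and KIF2C (−0.40, adjusted p = 0.0171). KIF22 was at 0.14 without the first library and KIF20B at 0.11 without the second, so for these genes the sign depended on which control was used. KIF20A lost its call without the second (0.25, adjusted p = 0.109) and was at 0.93 without the first. KIF15 ranged from −1.18 to −0.40, KIF18B from −1.12 to −0.90 and KIF4A from 0.40 to 0.56 when any library was left out, with their calls kept. When the 6 SKM-1 libraries were fitted alone, no mitotic kinesin was called higher and 1, KIF18B, lower. KIF4A then had an adjusted p of 0.0788, KIF15 of 0.0689 and KIF20A of 0.112. KIF18A (0.43, adjusted p = 0.0563) was called higher when libraries were rescaled to an equal sum (0.47, adjusted p = 0.045).

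**Figure D3:**
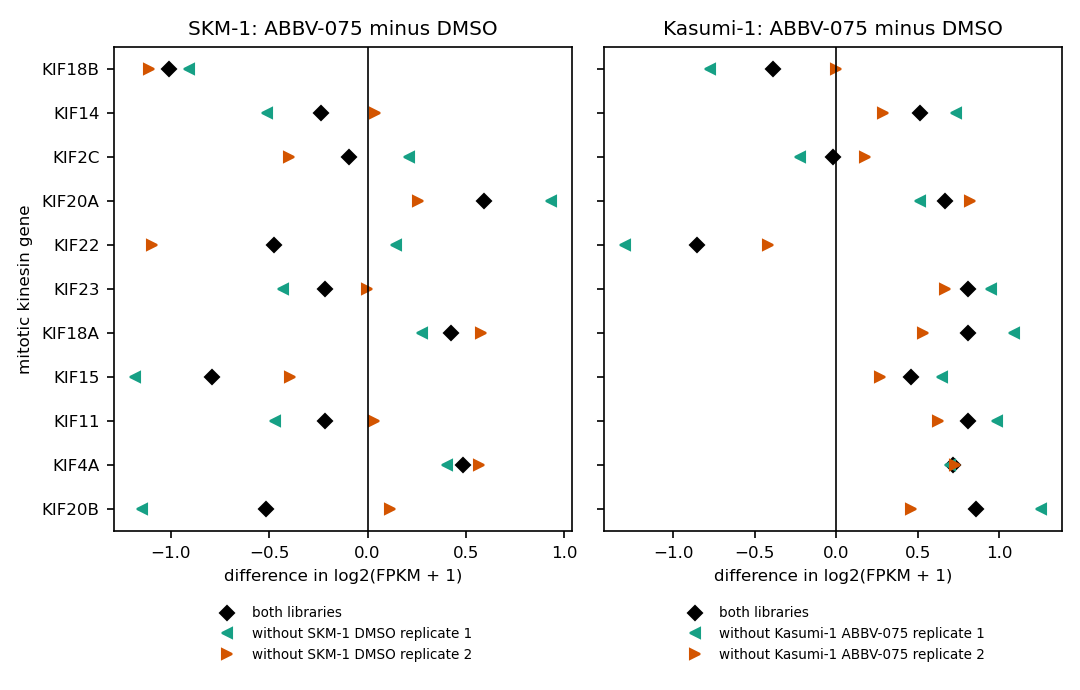
Log2 difference of ABBV-075 from DMSO, on the log2(FPKM + 1) scale, of the mitotic kinesins in SKM-1 with all libraries and without each DMSO library, and in Kasumi-1 with all libraries and without each ABBV-075 library. In SKM-1 KIF22 moves from 0.14 to −1.09 and KIF20B from −1.15 to 0.11 between the DMSO libraries left out, while KIF18B stays between −1.12 and −0.90.

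The difference in response between the lines was tested itself. For the mean of the 3 AML lines minus NCI-H1299, 10 of 23 tested kinesins were called with ABBV-075 and all 10 were positive, that is, higher in the AML response, where 18.5% of all genes tested were called in either direction. Of these, 8 were mitotic kinesins: KIF14 (2.17, adjusted p = 4.95e-06), KIF20A (2.12, adjusted p = 2.86e-06), KIF18B (1.67, adjusted p = 0.000101), KIF23 (1.54, adjusted p = 1.17e-05), KIF18A (1.48, adjusted p = 0.00017), KIF2C (1.36, adjusted p = 9.73e-05), KIF4A (1.20, adjusted p = 2.06e-06) and KIF11 (1.05, adjusted p = 0.00184). The other two were the transport kinesins KIF3C (0.68, adjusted p = 0.00559) and KIF1B (0.57, adjusted p = 0.00162). These 10 calls held in every alternative setting in which the gene was tested and without any 1 library. KIF15, KIF22 and KIF20B were not called in this comparison, and KIF15 and KIF22 had fallen in NCI-H1299 and in MV-4-11. The spread between the 3 AML lines does not enter these adjusted p-values.

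**Figure D4:**
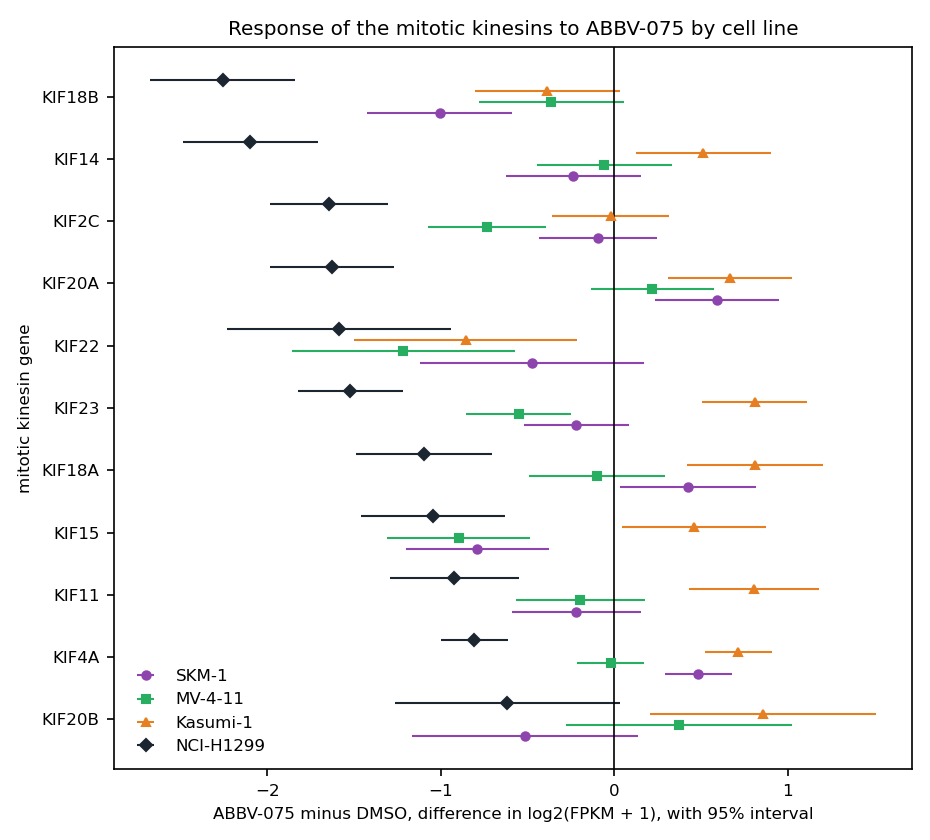
Log2 difference of ABBV-075 from DMSO, on the log2(FPKM + 1) scale, of each mitotic kinesin in each line (points) with its 95% interval (lines). The NCI-H1299 interval lies below 0 for the 10 called genes, from KIF18B at −2.26 to KIF4A at −0.81, and the Kasumi-1 interval lies above 0 for 8 genes, 7 of them called.

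Responses to ABBV-075 were also compared between the AML lines, where the share of kinesins called was near or below that of all genes in each pair. Of 24 kinesins tested in MV-4-11 and Kasumi-1, 7 were called, all lower in the MV-4-11 response, where 27.3% of all genes were called. They were KIF15 (−1.36), KIF23 (−1.36), KIF11 (−1.001), KIF18A (−0.91), KIF4A (−0.73), KIF2C (−0.71) and the transport kinesin KIF16B (−1.14). Of 25 tested in SKM-1 and Kasumi-1, 8 were called, where 30.9% of all genes were. KIF20B (−1.37), KIF15 (−1.25), KIF23 (−1.03), KIF11 (−1.02), KIF21A (−0.80) and KIF14 (−0.75) were lower in the SKM-1 response, and KIF3B (0.77) and KIF3C (0.70) higher. Between SKM-1 and MV-4-11, 6 of 24 were called, KIF16B (0.86), KIF21B (0.85), KIF3C (0.74), KIF2C (0.64) and KIF4A (0.50) higher in SKM-1 and KIF1C (−0.66) lower, where 29.2% of all genes were called. KIF16B passed the filter in MV-4-11 only through DMSO and ABBV-744 libraries, so its fall there had to appear. It counts among the calls of the pairs with MV-4-11, and its differences are given as a description with no test. Many of the other calls rested on single libraries. With each of the 24 libraries left out in turn, the calls of KIF11, KIF15, KIF23 and KIF4A (MV-4-11 against Kasumi-1), of KIF11, KIF15, KIF23 and KIF3B (SKM-1 against Kasumi-1) and of KIF3C and KIF4A (SKM-1 against MV-4-11) were kept. For SKM-1 against MV-4-11 the call of KIF2C was lost in 21 of 24 such fits (0.34 to 0.95), of KIF21B in 16 (0.47 to 1.22) and of KIF1C in 6. For SKM-1 against Kasumi-1 that of KIF14 was lost in 13 (−1.02 to −0.47), of KIF20B and KIF21A in 4 each and of KIF3C in 1. For MV-4-11 against Kasumi-1 that of KIF2C was lost in 6 and of KIF18A in 4. The SKM-1 against Kasumi-1 count was 15 without the first SKM-1 DMSO library and 5 without the second, the first SKM-1 ABBV-075, the first Kasumi-1 DMSO or the second Kasumi-1 ABBV-075 library. The SKM-1 against MV-4-11 count was 10 without the first SKM-1 DMSO library, and 3 without the first SKM-1 ABBV-075, the first MV-4-11 DMSO or either MV-4-11 ABBV-075 library.

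The proteins that work with mitotic kinesins were read from a separate list of 24 genes, such as Aurora kinases and their partners, PRC1 and RACGAP1. In NCI-H1299 all 24 fell with ABBV-075, with a median of −1.55. KIFC1, a minus-end motor that gathers spindle poles, was at −2.09 (adjusted p = 1.45e-06), AURKA at −2.05 (adjusted p = 4e-10), CDCA8 at −1.92 (adjusted p = 6.4e-09) and AURKB at −1.88 (adjusted p = 3.16e-06). In Kasumi-1, 9 rose and 1 fell, led by HMMR (0.98, adjusted p = 0.0113) and CEP55 (0.94, adjusted p = 0.000817). In MV-4-11 none rose and 8 fell, led by AURKA (−0.79, adjusted p = 1.47e-05). In SKM-1, 5 rose, led by CDC20 (1.05, adjusted p = 0.00175) and CIT, the citron kinase that KIF14 binds (0.86, adjusted p = 6.47e-06), and 3 fell. The SKM-1 shares were below those of all genes tested there, of which 32% rose and 29.2% fell. Of all genes tested, 26.5% fell in NCI-H1299, 24.7% rose and 32.6% fell in Kasumi-1, and 20.3% rose and 22.1% fell in MV-4-11. All 24 partners were called higher in the AML response than in NCI-H1299, where 18.5% of all genes tested were called in either direction.

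Markers of proliferation did not follow the mitotic kinesins in every line. Of 7, all fell with ABBV-075 in NCI-H1299, 6 fell in MV-4-11, 4 fell and 1 rose in SKM-1, and 3 fell and 1 rose in Kasumi-1. Among all genes tested in these lines, in that order, 26.5%, 22.1%, 29.2% and 32.6% fell and 20.6%, 20.3%, 32% and 24.7% rose. MCM2, a subunit of the replicative helicase, fell in all 4 lines (−2.04 in NCI-H1299, −2.37 in SKM-1, −1.85 in MV-4-11 and −2.24 in Kasumi-1), and so did MCM5 (−2.22, −2.31, −1.89 and −2.54). In Kasumi-1, then, both fell where 7 mitotic kinesins rose, and TOP2A, which untangles sister chromosomes, was at 0.80 (adjusted p = 0.000683). Of up to 15 transcription regulators of the cell cycle (E2F, DREAM and FOXM1 components), 12 fell in NCI-H1299 and 11 fell in each AML line. None rose in NCI-H1299 or MV-4-11, 1 rose in SKM-1 and 2 in Kasumi-1, beside the shares of all genes given above. These counts do not separate activators from repressors. FOXM1, named here after its values were seen in the other lines, was at −2.31 in NCI-H1299, −1.10 in SKM-1, −1.04 in MV-4-11 and −0.73 in Kasumi-1.

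The 4 kinesins outside the naming rule followed no single pattern. CENPE, which carries chromosomes to the spindle equator, rose in Kasumi-1 (1.57, adjusted p = 0.00119). KIFC1 fell in NCI-H1299, as given above, and so did KIFC3 (−1.46, adjusted p = 9.59e-06). KIFC2 rose in all 4 lines, by 0.71 on the log2 scale in SKM-1, 0.74 in MV-4-11, 0.64 in Kasumi-1 and 0.65 in NCI-H1299 (adjusted p from 0.0139 to 0.0295).

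Transport kinesins moved in both directions with ABBV-075. Of those tested, 6 of 11 rose and 2 fell in SKM-1, 3 of 10 rose and 3 fell in MV-4-11, 4 of 11 rose and 2 fell in Kasumi-1, and 6 of 13 rose and 4 fell in NCI-H1299. The class medians were 0.22, 0.18, 0.14 and 0.29. Background shares are those given above for each line. KIF3A, KIF1B and KIF13B were called higher in all 4 lines, whereas no mitotic kinesin was called in the same direction in all 4.

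KIF3A pairs with KIF3B and KIFAP3 to form kinesin-2, which carries cargo along cytoplasmic and ciliary microtubules. In Kasumi-1 it was at 1.18 and 1.23 FPKM with DMSO and at 5.66 and 8.44 FPKM with ABBV-075, 5.84-fold higher (log2 difference 1.85 ± 0.27, adjusted p = 2.54e-05). In MV-4-11 it went from 1.74 and 1.34 FPKM to 5.24 and 5.98 FPKM (1.38 ± 0.27, adjusted p = 0.000599), and in NCI-H1299 from 6.11 and 5.49 FPKM to 13.6 and 14.2 FPKM (1.13 ± 0.27, adjusted p = 0.00251). In SKM-1 it went from 1.07 and 3.79 FPKM to 7.57 and 10.1 FPKM (1.63 ± 0.27, adjusted p = 7.06e-05), with a difference of 1.03 without the first DMSO library and 2.24 without the second. The groups did not overlap in any line. Its partner KIF3B rose in SKM-1 (0.65, adjusted p = 0.00073) from 5.82 and 8.47 FPKM to 11.4 and 11.9 FPKM, and in NCI-H1299 (0.49, adjusted p = 0.00912) from 24.0 FPKM in both controls to 33.5 and 34.5 FPKM. In SKM-1 the KIF3B difference was 0.42 without the first DMSO library and 0.89 without the second. The NCI-H1299 call of KIF3B was lost without the second ABBV-075 library (0.47, adjusted p = 0.0528). KIF3B was not called in MV-4-11 or Kasumi-1.

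KIF1B carries synaptic vesicle precursors and mitochondria. It was at 6.69 and 6.80 FPKM with DMSO and 14.0 and 16.1 FPKM with ABBV-075 in SKM-1 (1.05 ± 0.09, adjusted p = 1.22e-07). It went from 1.81 and 1.55 FPKM to 4.97 and 4.68 FPKM in MV-4-11 (1.12 ± 0.09, adjusted p = 1.27e-07). In Kasumi-1 it went from 1.43 and 1.498 FPKM to 4.82 and 4.68 FPKM (1.22 ± 0.09, adjusted p = 3.02e-08). In NCI-H1299, where its control level of 14.6 and 14.8 FPKM was higher, it went to 21.97 and 22.4 FPKM (0.56 ± 0.09, adjusted p = 0.000156). KIF13B, which carries DLG1 and phosphoinositides to the cell periphery, had log2 differences of 0.91 (SKM-1, adjusted p = 5.29e-05), 0.74 (MV-4-11, adjusted p = 0.000658), 0.54 (Kasumi-1, adjusted p = 0.00483) and 0.42 (NCI-H1299, adjusted p = 0.0249). In NCI-H1299 its call was lost without any of the line's 4 DMSO and ABBV-075 libraries, at 0.37 to 0.48 (adjusted p from 0.0548 to 0.135). In Kasumi-1 it was lost without the first DMSO (0.45, adjusted p = 0.0501) or the first ABBV-075 library (0.31, adjusted p = 0.082).

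KIF1C, a motor of integrins and dense-core vesicles, fell in 3 lines. In NCI-H1299 it was at 20.1 and 20.97 FPKM with DMSO and at 11.3 and 11.1 FPKM with ABBV-075 (−0.82 ± 0.16, adjusted p = 0.000469). It fell in SKM-1 from 4.95 and 5.35 FPKM to 3.05 and 2.86 FPKM (−0.64, adjusted p = 0.00225) and in Kasumi-1 from 3.37 and 3.29 FPKM to 2.79 and 1.502 FPKM (−0.49, adjusted p = 0.013). The Kasumi-1 call was lost without the second ABBV-075 library (−0.19, adjusted p = 0.268) or the first DMSO library (−0.48, adjusted p = 0.0593), and in a fit of that line alone (adjusted p = 0.0951). In MV-4-11 its groups overlapped, at 3.76 and 4.37 FPKM with DMSO and 4.20 and 4.09 FPKM with ABBV-075.

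The KIF5 genes encode the heavy chains of conventional kinesin, of which KIF5B is the widely expressed form and KIF5A and KIF5C are the neuronal forms. KIF5B was the most abundant transport kinesin, and its level in NCI-H1299 was 46.3 and 47.1 FPKM with DMSO and 54.2 and 60.6 FPKM with ABBV-075, which was not called. It was called higher in Kasumi-1, from 54.0 and 54.1 FPKM to 70.5 and 103 FPKM (0.65, adjusted p = 0.0215), but not without the second ABBV-075 library (0.38, adjusted p = 0.237) or without either DMSO library (adjusted p = 0.0766 and 0.0717). KIF5C rose in NCI-H1299 from 2.93 and 3.12 FPKM to 9.96 and 10.2 FPKM, 3.33-fold higher (1.46 ± 0.10, adjusted p = 1.52e-08), the largest rise of any kinesin in that line. KIF5A moved the opposite way there, from 1.86 FPKM in both controls to 1.49 and 1.32 FPKM (−0.25, adjusted p = 0.00107), and was not called with a pseudocount of 0.1 (adjusted p = 0.104). Neither KIF5A nor KIF5C was tested in the AML lines.

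A further 3 transport kinesins lay below DMSO with ABBV-075 in an AML line where they passed the filter only through DMSO or ABBV-744 libraries, so that a difference had to appear. They count among the calls given above, and their values are given as a description with no test. KIF17, a motor of dendrites and cilia, was at 9.49 and 11.4 FPKM with DMSO in MV-4-11 and at 0.399 and 0.449 FPKM with ABBV-075 (log2 difference −3.00). In Kasumi-1, where it was not tested, it was at 1.06 and 0.695 FPKM with DMSO and at 0.205 and 0.105 FPKM with ABBV-075. KIF1A, the neuronal relative of KIF1B, was at 2.92 and 2.36 FPKM with DMSO in Kasumi-1 and at 0.0047 and 0.0291 FPKM with ABBV-075 (−1.84). KIF16B, which carries early endosomes, was at 2.55 and 2.38 FPKM in MV-4-11 controls and at 0.720 and 0.733 FPKM with ABBV-075 (−1.004). KIF17 passed in NCI-H1299 in the same way, and went from 1.83 and 1.88 FPKM to 0.891 and 0.786 FPKM (−0.64).

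KIF21A and KIF21B are motors that also pause microtubule growth, and they moved in different directions in different lines. KIF21A rose in NCI-H1299 from 27.5 and 27.6 FPKM to 41.5 and 44.0 FPKM (0.62, adjusted p = 0.00615). In SKM-1 it was called lower (−0.43, adjusted p = 0.0344) although its groups overlapped, at 5.93 and 9.92 FPKM with DMSO and 4.86 and 6.14 FPKM with ABBV-075. That call was lost without the second DMSO library (−0.10, adjusted p = 0.55), without the first ABBV-075 library (−0.28, adjusted p = 0.244) and with SKM-1 fitted alone (adjusted p = 0.211). KIF21B fell in MV-4-11 from 11.1 and 13.3 FPKM to 6.77 and 6.499 FPKM (−0.78, adjusted p = 0.00675), though not without the second DMSO library (−0.66, adjusted p = 0.0658). KIF3C, the alternative partner of KIF3A, rose in SKM-1 from 2.96 and 2.22 FPKM to 5.01 and 4.63 FPKM (0.70, adjusted p = 0.00027) and fell in NCI-H1299 from 6.88 and 6.94 FPKM to 4.98 and 4.59 FPKM (−0.45, adjusted p = 0.0107). The NCI-H1299 call was lost without the second DMSO (adjusted p = 0.0533) or the second ABBV-075 library (adjusted p = 0.0751). KIF13A, which carries recycling endosomes, rose in SKM-1 by 0.21 on the log2 scale (adjusted p = 0.0378), a call lost without the first DMSO library (0.14, adjusted p = 0.176) or the second ABBV-075 library (0.16, adjusted p = 0.187), with median scaling (0.15, adjusted p = 0.155), with a pseudocount of 0.1 (0.24, adjusted p = 0.245) or 0.5 (0.22, adjusted p = 0.0675) and with SKM-1 fitted alone (adjusted p = 0.34).

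**Figure D5:**
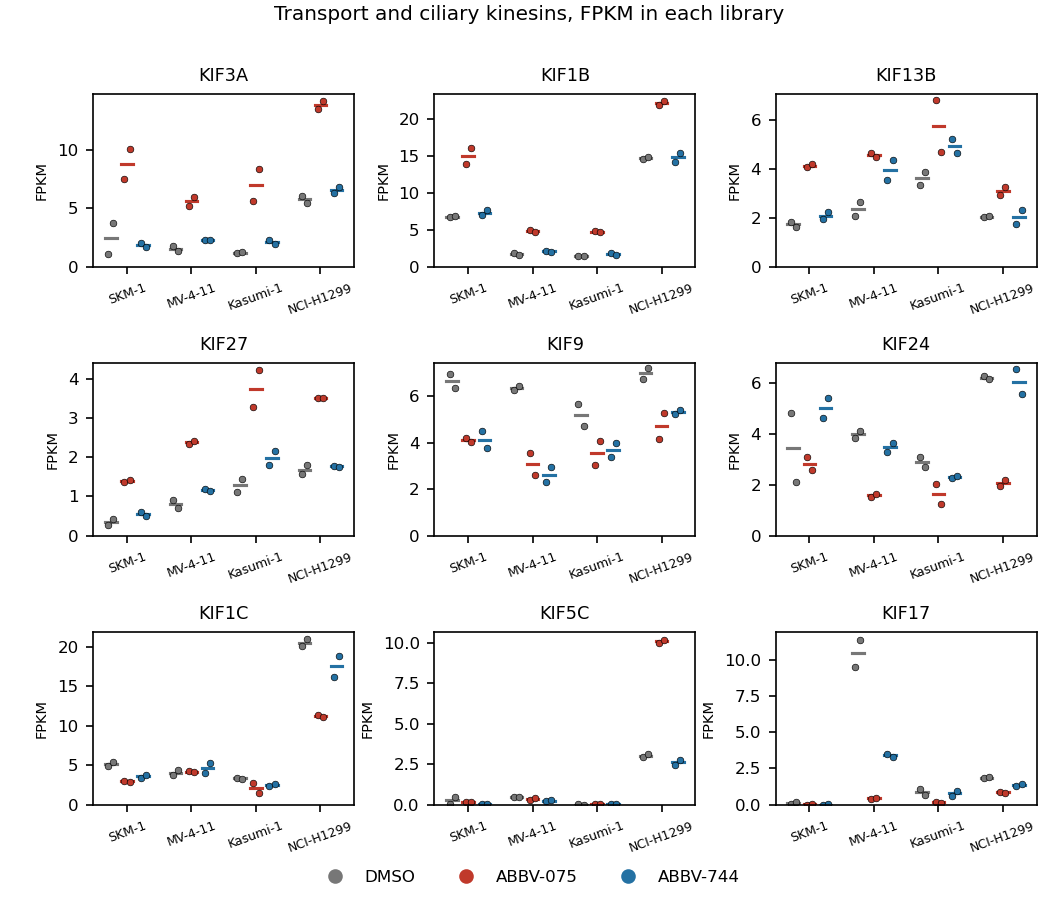
FPKM of 6 transport kinesins (KIF3A, KIF1B, KIF13B, KIF1C, KIF5C and KIF17) and 3 ciliary kinesins (KIF27, KIF9 and KIF24) in the 12 groups, with a point for each library and a bar for the mean of the 2 libraries of a group. KIF3A and KIF1B lie above DMSO with ABBV-075 in all 4 lines, KIF9 lies below DMSO in all 4, and KIF17 falls from 9.49 or more to 0.449 FPKM or less in MV-4-11.

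Light chains and adaptors link transport kinesins to their cargo. Of 18 genes listed as such, 9 of 15 tested rose and 2 fell in SKM-1, and 6 of 15 rose and none fell in MV-4-11. In Kasumi-1, 6 of 15 rose and 3 fell, and in NCI-H1299, 6 of 18 rose and 2 fell. Among all genes tested 32%, 20.3%, 24.7% and 20.6% rose in these lines, in that order. DENND4C had log2 differences of 1.20, 0.63, 0.98 and 0.84 in SKM-1, MV-4-11, Kasumi-1 and NCI-H1299, each called. It was on the list but is not established as a light chain or cargo adaptor of kinesin. The light chain gene KLC1, named after its values were seen, was at 0.96, 0.63, 0.57 and 0.50 in the same order, each called. MAPK8IP3, the scaffold JIP3 that ties kinesin-1 to axonal cargo, was at 1.49 in SKM-1 (adjusted p = 0.000135), 1.21 in MV-4-11 (adjusted p = 0.0014) and 0.82 in NCI-H1299 (adjusted p = 0.0171). KIFAP3, the third subunit of kinesin-2, named after its values were seen, rose in Kasumi-1 (0.80, adjusted p = 3.04e-05), NCI-H1299 (0.57, adjusted p = 0.000888) and SKM-1 (0.38, adjusted p = 0.0114), and was not called in MV-4-11 (0.11, adjusted p = 0.502). FYCO1, an adaptor of late endosomes and autophagosomes, fell in Kasumi-1 (−1.18, adjusted p = 3.1e-06). For cytoplasmic dynein and dynactin, which move cargo the other way, 13 of 19 rose and none fell in SKM-1, 9 of 18 rose and 1 fell in MV-4-11 and in Kasumi-1, and 3 of 18 rose and 1 fell in NCI-H1299, where the share that rose was below that of all genes. The light chain gene DYNLT1 was at 1.59 in SKM-1 (adjusted p = 3.66e-05), 0.99 in MV-4-11 (adjusted p = 0.00387) and 1.17 in Kasumi-1 (adjusted p = 0.000681).

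Of the ciliary kinesins, KIF9 fell with ABBV-075 in all 4 lines, and KIF27 rose in Kasumi-1 and NCI-H1299, where its controls passed the filter too. Both are linked to motile cilia. KIF27 was low throughout. It was at 1.12 and 1.44 FPKM with DMSO and 3.27 and 4.22 FPKM with ABBV-075 in Kasumi-1 (1.05 ± 0.11, adjusted p = 6.44e-07). It went from 1.57 and 1.79 FPKM to 3.52 and 3.501 FPKM in NCI-H1299 (0.75 ± 0.11, adjusted p = 3.34e-05). In SKM-1 and MV-4-11 it passed the filter only through treated groups, with controls at 0.273 and 0.416 FPKM and at 0.919 and 0.709 FPKM and ABBV-075 libraries at 1.36 and 1.41 FPKM and at 2.34 and 2.42 FPKM. Its difference there had to appear and is given with no test.

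KIF9 fell in MV-4-11 from 6.30 and 6.47 FPKM to 3.56 and 2.61 FPKM (−0.86 ± 0.15, adjusted p = 0.000227) and in SKM-1 from 6.96 and 6.37 FPKM to 4.21 and 4.03 FPKM (−0.58 ± 0.15, adjusted p = 0.00328). In NCI-H1299 (−0.49, adjusted p = 0.0137) and Kasumi-1 (−0.45, adjusted p = 0.0176) the calls were less steady. They were lost in NCI-H1299 without the second DMSO (−0.45, adjusted p = 0.0805) or first ABBV-075 library (−0.34, adjusted p = 0.15), and in Kasumi-1 without the first DMSO (−0.34, adjusted p = 0.146) or first ABBV-075 library (−0.28, adjusted p = 0.164) and in a fit of that line alone (adjusted p = 0.0858). KIF9 shares its locus with KIF9-AS1, and whether the counting used the strand is not known, so reads of the pair cannot be told apart. KIF9-AS1 passed the filter in NCI-H1299 only through 1 ABBV-075 and 1 ABBV-744 library. It was at 0.660 and 0.662 FPKM with DMSO and at 0.887 and 1.09 FPKM with ABBV-075, which is given with no test.

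KIF24, which holds back cilia at the mother centriole, fell in 3 lines. In NCI-H1299 it was at 6.27 and 6.14 FPKM with DMSO and at 1.95 and 2.19 FPKM with ABBV-075 (−1.23 ± 0.21, adjusted p = 0.000177), and in MV-4-11 at 3.85 and 4.11 FPKM and at 1.52 and 1.65 FPKM (−0.95 ± 0.21, adjusted p = 0.0018). In Kasumi-1 (−0.59, adjusted p = 0.0247) the call was lost without the first DMSO (−0.52, adjusted p = 0.124) or second ABBV-075 library (−0.37, adjusted p = 0.229). Of the ciliary class it was the gene with the TTCGAA motif in its window. KIF7, which acts in Hedgehog signalling at the tip of the cilium, was tested in NCI-H1299 only and fell from 2.43 and 2.56 FPKM to 1.55 and 1.63 FPKM (−0.43).

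Among the other kinesins, KIF2A is a depolymerase related to KIF2C that acts at spindle poles and in the cytoplasm, and it can be counted with either class. It fell in SKM-1 from 33.5 and 38.0 FPKM to 22.4 and 26.9 FPKM (−0.52, adjusted p = 0.00634), though not without the first ABBV-075 library (−0.40, adjusted p = 0.0756) or in a fit of SKM-1 alone (adjusted p = 0.082). It fell in MV-4-11 from 25.2 and 22.1 FPKM to 17.3 and 16.2 FPKM (−0.47, adjusted p = 0.017), though not without the first DMSO (−0.38, adjusted p = 0.13) or second ABBV-075 library (−0.43, adjusted p = 0.102). It was not called in Kasumi-1 or in NCI-H1299, where its controls were at 24.4 and 25.3 FPKM and its ABBV-075 libraries at 20.9 and 24.1 FPKM. KIF26B, an atypical kinesin without ATPase activity, was at 2.25 and 2.20 FPKM with DMSO in Kasumi-1 and at 0.241 and 0.204 FPKM with ABBV-075 (−1.40), and passed the filter there only through DMSO and ABBV-744 libraries, so that no test is given.

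With ABBV-744 against DMSO, between 1 and 8 kinesin rows were called in a line. The doses of the compounds differ and both comparisons share the DMSO libraries, so their values are set side by side without a test between them. In NCI-H1299 1 of 30 kinesin rows was called lower, KIF5A (−0.31, adjusted p = 0.00169), and none higher, where 3.95% of all genes tested fell and 1.4% rose. The sum of the 11 mitotic kinesins there was 434 and 413 FPKM with ABBV-744, beside 461 and 457 FPKM with DMSO and 167 and 168 FPKM with ABBV-075. KIF18B was at 26.1 and 26.4 FPKM with ABBV-744 and KIF14 at 6.004 and 5.84 FPKM, both below their controls but not called. The KIF5A call was lost with a pseudocount of 0.1 (adjusted p = 0.271), and 6 kinesin rows were called lower when NCI-H1299 was fitted alone.

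In MV-4-11 1 of 25 kinesin rows rose with ABBV-744 and 3 fell, where 4.61% of all genes tested rose and 6.75% fell. KIF17 went to 3.51 and 3.28 FPKM, between its control level and its level with ABBV-075 (−1.38, adjusted p = 4.02e-07). KIF9 fell to 2.29 and 2.96 FPKM (−1.03, adjusted p = 0.000239) and KIF16B to 1.49 and 1.20 FPKM (−0.56, adjusted p = 0.00225). KIF13B rose to 3.54 and 4.34 FPKM (0.56, adjusted p = 0.0181), though not without the first DMSO (0.44, adjusted p = 0.198) or the second ABBV-744 library (0.44, adjusted p = 0.188).

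In Kasumi-1 1 of 27 rose and 3 fell with ABBV-744, where 8.69% of all genes tested rose and 15% fell. KIF1A, which passed the filter only through DMSO libraries, went to 0.213 and 0.385 FPKM (−1.49), and KIF26B went to 1.14 and 0.947 FPKM (−0.66). KIF26B reached 1 FPKM in both DMSO libraries but in only 1 of the ABBV-744 libraries, so the filter favoured a fall. Both genes count among the 3 that fell, and their values are given as a description with no test. KIF21B was called lower (−0.62, adjusted p = 0.0411) but lost its call without any of the line's DMSO or ABBV-744 libraries (adjusted p from 0.124 to 0.156). KIF27 was called higher (0.39, adjusted p = 0.015) but not without the first DMSO (0.29, adjusted p = 0.157) or second ABBV-744 library (0.30, adjusted p = 0.136). No mitotic kinesin was called in Kasumi-1, MV-4-11 or NCI-H1299 with ABBV-744.

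In SKM-1 6 of 26 kinesin rows rose with ABBV-744 and 2 fell, where 14.9% of all genes tested rose and 12.5% fell. Of these, 4 were mitotic kinesins, KIF20A (0.70, adjusted p = 0.00577), KIF18A (0.63, adjusted p = 0.0202), KIF2C (0.51, adjusted p = 0.028) and KIF4A (0.47, adjusted p = 0.0014). KIF3C (0.56, adjusted p = 0.00537) and KIF13A (0.37, adjusted p = 0.00343) rose, and KIF9 (−0.58, adjusted p = 0.00925) and KIF21A (−0.46, adjusted p = 0.0499) fell. KIF4A was at 36.2 and 34.7 FPKM with ABBV-744, beside 35.1 and 36.5 FPKM with ABBV-075 and 23.9 and 26.8 FPKM with DMSO. The calls of KIF20A (0.37, adjusted p = 0.0613), KIF2C (0.20, adjusted p = 0.308), KIF3C (0.41, adjusted p = 0.056) and KIF21A (−0.13, adjusted p = 0.549) were lost without the second DMSO library, and that of KIF18A without the first (0.48, adjusted p = 0.0851). With each of the 24 libraries left out in turn, the KIF21A call was lost in 19 fits. Without the first ABBV-744 library those of KIF18A (0.50, adjusted p = 0.152) and KIF2C (0.52, adjusted p = 0.0998) were lost, and without the second those of KIF2C (0.49, adjusted p = 0.113), KIF3C (0.45, adjusted p = 0.0689) and KIF9 (−0.48, adjusted p = 0.0923). Without the first DMSO library 6 kinesin rows were called lower in SKM-1. No kinesin was called in either direction when SKM-1 was fitted alone. For the AML mean minus NCI-H1299, 0 of 23 kinesins were called with ABBV-744, where 0.57% of all genes were.

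With DMSO alone NCI-H1299 differed from each AML line in most kinesins, as it did in most genes. Between NCI-H1299 and the AML lines, 19 of 25 kinesin rows were called against SKM-1, 16 of 24 against MV-4-11 and 19 of 24 against Kasumi-1, where 63.5%, 63.3% and 62.8% of all genes were called. Most were higher in NCI-H1299, in 16, 14 and 16 rows. KIF20A, at 73.2 and 71.2 FPKM in NCI-H1299, did not exceed 26.2 FPKM in any AML control library (−1.77 in SKM-1, −2.13 in MV-4-11 and −1.76 in Kasumi-1, each minus NCI-H1299). KIF4A, KIF18A, KIF18B and KIF23 were also higher in NCI-H1299 than in each AML line. KIF15 was called higher in SKM-1 (1.33), MV-4-11 (1.17) and Kasumi-1 (0.73) than in NCI-H1299, where it was at 9.69 and 9.73 FPKM. The other rows called higher in an AML line were KIF14 (1.06) and KIF2A (0.51) in SKM-1, KIF17 in MV-4-11, and KIF13B (0.59) and KIF2A (0.37) in Kasumi-1. The last was lost in 3 of 24 fits without 1 library (adjusted p up to 0.304).

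Transport kinesins showed the same order for KIF3B, KIF1B, KIF1C and KIF3A. KIF3B was at 24.0 FPKM in both NCI-H1299 controls, at 5.82 and 8.47 FPKM in SKM-1, at 4.18 and 3.66 FPKM in MV-4-11 and at 3.70 and 3.96 FPKM in Kasumi-1. MV-4-11 and Kasumi-1 were not called apart for KIF3B. Among the AML lines, 11 of 24 rows were called between SKM-1 and MV-4-11, 15 of 25 between SKM-1 and Kasumi-1 and 10 of 24 between MV-4-11 and Kasumi-1, where 56.7%, 55.7% and 55.7% of all genes were called. KIF14 was higher in SKM-1, at 15.8 and 23.6 FPKM, than in MV-4-11, at 7.09 and 5.73 FPKM (1.46), and in Kasumi-1, at 5.89 and 6.06 FPKM (1.54). KIF5B was lower in SKM-1, at 13.9 and 26.4 FPKM, than in MV-4-11 (−1.14), Kasumi-1 (−1.45) and NCI-H1299 (−1.24). Without the first SKM-1 DMSO library the KIF5B differences were −0.70, −1.004 and −0.80. KIF22 was lower in Kasumi-1, at 30.7 and 29.0 FPKM, than in MV-4-11 (difference 1.59, MV-4-11 minus Kasumi-1). The MV-4-11 against Kasumi-1 count fell to between 4 and 6 when any of the 4 libraries compared was left out.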

How the data were processed

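Poly-A selected RNA was sequenced from 24 libraries, 2 in each of 12 groups. The authors deposited 1 table of FPKM values with 30373 rows. The authors name DESeq2, per the submitters' processing notes, with no version or role. Genome build, aligner and annotation: not given in the sources used here. All 24 columns were matched to samples by label and 0 were left unmatched. Depth is unknown.

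Values were tested as log2(FPKM + 1), with a pseudocount of 1, for genes that reached 1 FPKM in 2 or more libraries of each line compared. Group means were fitted to all libraries with limma 3.58.1 in R 4.3.3 (lmFit, contrasts.fit, eBayes with trend and robust, statmod 1.5.0), with 12 residual degrees of freedom, two-sided, Benjamini-Hochberg adjusted within a comparison at 0.05. The procedure was tested on simulated data for ABBV-075 against DMSO in NCI-H1299 only, with the noise of a gene the same in all groups. That test cannot tell how the calls hold under the wider spread of SKM-1 DMSO and Kasumi-1 ABBV-075. With 2 libraries against 2 an exact permutation test cannot go below p = 0.333. Errors after ± are standard errors and intervals are at 95%. Any KIF member may be named. From each other list up to 4 called members with the largest difference and 2 uncalled ones may be. Members, classes, lists and motifs were chosen with earlier results of these data known. A direct test of ABBV-744 against ABBV-075 had been planned and is not reported, since the doses differ. Promoters come from RefSeq (GRCh38.p14) and were searched with Python 3.11.15, numpy 2.4.6 and pandas 2.3.3. Plots were drawn with matplotlib 3.10.9. Alternatives were other pseudocounts and filters, rescaled libraries, each line fitted alone, another variance model, KIF2A counted as mitotic, and each library left out.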

Additional observations from a re-analysis of the deposited data

Results flagged for a closer look

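The response to ABBV-075 differed between the AML mean and NCI-H1299, by limma's test of the difference itself on the log2(FPKM + 1) scale, for 10 kinesins, with values of 2.17 for KIF14, 2.12 for KIF20A, 1.67 for KIF18B, 1.54 for KIF23, 1.48 for KIF18A, 1.36 for KIF2C, 1.20 for KIF4A, 1.05 for KIF11, 0.68 for KIF3C and 0.57 for KIF1B. The mitotic genes among them fell in NCI-H1299, whereas KIF1B rose in all 4 lines and less in NCI-H1299, and KIF3C fell in NCI-H1299 and rose in SKM-1. Of all genes tested in this comparison, 18.5% were called.

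The response also differed within AML, with a share of kinesins called near or below that of all genes tested in each pair. That share of all genes was 30.9% for SKM-1 minus Kasumi-1, 27.3% for MV-4-11 minus Kasumi-1 and 29.2% for SKM-1 minus MV-4-11. For SKM-1 minus Kasumi-1 the difference was −1.37 for KIF20B, −1.25 for KIF15, −1.03 for KIF23, −1.02 for KIF11, −0.80 for KIF21A, −0.75 for KIF14, 0.70 for KIF3C and 0.77 for KIF3B. For MV-4-11 minus Kasumi-1 it was −1.36 for KIF15, −1.36 for KIF23, −1.14 for KIF16B, −1.001 for KIF11, −0.91 for KIF18A, −0.73 for KIF4A and −0.71 for KIF2C. For SKM-1 minus MV-4-11 it was 0.86 for KIF16B, 0.85 for KIF21B, 0.74 for KIF3C, 0.64 for KIF2C, 0.50 for KIF4A and −0.66 for KIF1C. The KIF16B values are given with no test, since its fall in MV-4-11 had to appear. When single libraries were left out, calls were lost in some of 24 fits. They were those of KIF14 (13 fits), KIF20B (4), KIF21A (4) and KIF3C (1) for SKM-1 minus Kasumi-1, of KIF2C (6) and KIF18A (4) for MV-4-11 minus Kasumi-1, and of KIF2C (21), KIF21B (16) and KIF1C (6) for SKM-1 minus MV-4-11.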

How the results depend on the processing

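No paired analysis was possible because the labels carry no replicate numbers and the numbers used here follow the order of deposition. No called kinesin reversed under any alternative. Signs turned for values that were not called. With a library left out, the ABBV-075 differences of these ran in SKM-1 from −0.47 to 0.033 (KIF11), −0.51 to 0.037 (KIF14), −1.15 to 0.11 (KIF20B), −1.09 to 0.14 (KIF22) and −0.40 to 0.21 (KIF2C), the extremes being those without either DMSO replicate. In MV-4-11 they ran from −0.19 to 0.075 (KIF14) and −0.31 to 0.11 (KIF18A) without either DMSO replicate, and from −0.11 to 0.069 (KIF4A) without either ABBV-075 replicate. In Kasumi-1 they ran from −0.77 to 0.000779 (KIF18B) and −0.22 to 0.18 (KIF2C) without either ABBV-075 replicate, and KIF2C was at 0.03 without DMSO replicate 2. KIF4A in MV-4-11 was at 0.043 with rescaled sums, and KIF2C in Kasumi-1 at 0.073 with median scaling.

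Counts of called kinesins that moved by over 1.5 times are given by setting, and the cause was not tested beyond the number of genes each setting tests. With no filter on low values, 17 rather than 10 were called for AML minus NCI-H1299 with ABBV-075, 4 rather than 0 with ABBV-744, and 20, 24, 18 and 25 rather than 11, 15, 10 and 16 for the DMSO levels of SKM-1 against MV-4-11, SKM-1 against Kasumi-1, MV-4-11 against Kasumi-1 and MV-4-11 against NCI-H1299. ABBV-744 then gave 3 higher in MV-4-11, and ABBV-075 gave 1 transport kinesin lower in SKM-1. With a filter of 5 FPKM, which tests fewer genes, the last 3 DMSO counts were 8, 4 and 10, the SKM-1 against MV-4-11 response count was 3, and ABBV-744 gave 0 higher in Kasumi-1 and MV-4-11 and 0 lower in Kasumi-1 and NCI-H1299. Transport kinesins called were then 1 higher in MV-4-11, and 0, 2 and 1 lower in Kasumi-1, NCI-H1299 and SKM-1. With each line fitted alone, ABBV-744 gave 0 higher in SKM-1 and Kasumi-1, 0 lower in SKM-1 and 6 lower in NCI-H1299. ABBV-075 then gave 0 mitotic kinesins higher and 1 lower in SKM-1 and 1 higher in MV-4-11, and transport kinesins 5 higher in MV-4-11 and 1 lower in Kasumi-1 and in SKM-1. A pseudocount of 0.1 gave 1 transport kinesin lower in SKM-1 with ABBV-075, and with ABBV-744 1 lower in SKM-1 and 0 in NCI-H1299, and 0.5 gave 1 lower in SKM-1. Rescaled sums gave 18 for SKM-1 against MV-4-11 with DMSO, 5 transport kinesins higher in MV-4-11 and 2 higher with ABBV-744 there. Median scaling gave 2 higher with ABBV-744 in Kasumi-1, and eBayes without trend gave 2 in MV-4-11.

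With any 1 library left out, mitotic kinesins called higher with ABBV-075 were 5 to 8 in Kasumi-1, 2 to 3 in SKM-1 and 0 in the others. Those called lower were 0 to 2 in Kasumi-1, 3 to 5 in MV-4-11, 10 to 11 in NCI-H1299 and 2 to 6 in SKM-1. Transport kinesins higher were 2 to 5 in Kasumi-1, 3 to 4 in MV-4-11, 4 to 6 in NCI-H1299 and 5 to 7 in SKM-1, and lower 0 to 2, 2 to 3, 3 to 4 and 1 to 2. With ABBV-744, kinesins higher were 0 to 2, 0 to 3, 0 and 4 to 7, and lower 1 to 5, 3, 1 and 0 to 6, in the same order. The AML minus NCI-H1299 counts were 10 to 14 with ABBV-075 and 0 to 3 with ABBV-744. Response counts were 5 to 9 for MV-4-11 against Kasumi-1, 5 to 15 for SKM-1 against Kasumi-1 and 3 to 10 for SKM-1 against MV-4-11. DMSO counts were 15 to 20 (Kasumi-1 against NCI-H1299), 4 to 14 (MV-4-11 against Kasumi-1), 14 to 17 (MV-4-11 against NCI-H1299), 13 to 17 (SKM-1 against Kasumi-1), 8 to 15 (SKM-1 against MV-4-11) and 17 to 21 (SKM-1 against NCI-H1299).

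Median scaling moved the median of all genes by −0.14 for SKM-1 minus Kasumi-1 and the share of higher calls from 60.5% to 47.3%. With ABBV-744 the share of higher calls among all genes went from 54.3% to 44.0% (rescaled sums) or 42.9% (median scaling) in SKM-1, from 40.6% to 53.8% (rescaled sums) in MV-4-11, and from 36.8% to 23.6% (rescaled sums) or 48.2% (median scaling) in Kasumi-1. Without counts, depth limits cannot be given.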
